A study of Mus musculus with 2 samples.

Results

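The 7 cyclin-dependent kinase (CDK) inhibitors of the mouse were examined, namely the Cip/Kip genes *Cdkn1a*, *Cdkn1b* and *Cdkn1c* and the Ink4 genes *Cdkn2a*, *Cdkn2b*, *Cdkn2c* and *Cdkn2d*. They were picked by gene symbol, and all 7 were found among the 24421 symbols of the 2 count files. The libraries were made from hematopoietic stem cells (HSCs), the bone marrow cells that sustain all blood lineages, sorted as lineage-negative cells positive for CD150, c-kit and Sca-1 and negative for Flt3, CD48 and CD34. One group was WT, with the genotype Ezh2 +/+ CreERT+/-, and the other Ezh2 KO, with the genotype Ezh2 Δ/Δ CreERT+/-, both on C57BL/6. Per the labels, marrow of CD45.2 donors of either genotype had been transplanted into lethally irradiated CD45.1 recipients, tamoxifen (100 µl at 10 mg/ml) was given on 5 consecutive days, and cells were sorted 1 month later. Both groups carried the tamoxifen-dependent Cre, whose promoter is not given in the sources used here, nor are the number and age of donors and recipients behind each library. The labelled gate names no CD45 allele, so it does not itself separate donor cells from cells that a recipient still had.

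Each group was 1 library, so there was no spread between replicates to test against, and the values below have no replicate check. Reads given to genes came to 5763118 in WT and 4157280 in the other library. Several limits on the comparison were visible in the counts. *Ezh2*, the targeted gene, had 166 counts in WT against 129 in the library labelled Ezh2 KO. Its log2 ratio was 0.08 (95% interval -0.27 to 0.42), so the gene total gives no check of the deletion and the library is called by its label. *Xist*, the RNA of the inactive X, had 801 and 4 counts, and 4 Y-linked genes together had 0 and 681, so sex and genotype cannot be told apart. Marker RNAs of mature cells also differed, and their values stand after the results.

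CDK inhibitors brake the cell cycle by binding the kinases that drive it. Ink4 proteins bind the cyclin D partners Cdk4 and Cdk6, while Cip/Kip proteins bind cyclin and kinase complexes more broadly, above all those of Cdk2. Most HSCs rest outside the cycle, p57 (*Cdkn1c*) is a known keeper of that rest, and *Cdkn2a* is a classic gene that Polycomb complexes hold silent. *Ezh2* encodes a methyltransferase of one such complex.

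The start sites of the Ink4 genes are shown first, because the results below turn on 2 Ink4 genes with next to no reads and 2 with reads in both libraries. Windows from 250 bases before to 50 after each annotated start were taken from RefSeq on GRCm38.p6. They covered 9 starts of 6 members (*Cdkn1c* had no entry). Lower case is used throughout with CG dinucleotides in capitals. *Cdkn2a* has a distal start for p19Arf (chr4:89294570-89294869, minus strand) and a proximal start for p16Ink4a (chr4:89282143-89282442, minus). *Cdkn2b* (chr4:89310983-89311282, minus) lies beside it, and *Cdkn2d* (chr9:21291160-21291459, minus) stands for the Ink4 genes with reads in both libraries.
*Cdkn2a*, p19Arf start: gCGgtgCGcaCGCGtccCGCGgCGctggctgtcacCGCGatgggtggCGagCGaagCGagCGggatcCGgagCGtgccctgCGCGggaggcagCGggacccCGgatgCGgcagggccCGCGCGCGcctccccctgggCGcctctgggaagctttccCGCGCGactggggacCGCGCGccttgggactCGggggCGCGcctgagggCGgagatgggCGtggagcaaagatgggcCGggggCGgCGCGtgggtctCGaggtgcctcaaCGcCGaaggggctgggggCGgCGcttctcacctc
*Cdkn2a*, p16Ink4a start: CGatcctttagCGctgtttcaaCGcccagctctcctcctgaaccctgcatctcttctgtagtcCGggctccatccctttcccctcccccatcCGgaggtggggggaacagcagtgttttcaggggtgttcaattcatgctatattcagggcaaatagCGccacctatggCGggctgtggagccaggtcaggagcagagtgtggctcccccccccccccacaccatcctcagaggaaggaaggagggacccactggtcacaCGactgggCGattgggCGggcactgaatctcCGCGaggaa
*Cdkn2b*: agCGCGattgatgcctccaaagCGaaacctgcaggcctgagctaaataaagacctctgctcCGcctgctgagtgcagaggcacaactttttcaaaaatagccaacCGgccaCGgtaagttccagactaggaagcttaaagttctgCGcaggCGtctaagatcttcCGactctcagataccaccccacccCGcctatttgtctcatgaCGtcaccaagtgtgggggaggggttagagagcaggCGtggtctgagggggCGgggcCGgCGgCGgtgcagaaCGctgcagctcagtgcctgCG
*Cdkn2d*: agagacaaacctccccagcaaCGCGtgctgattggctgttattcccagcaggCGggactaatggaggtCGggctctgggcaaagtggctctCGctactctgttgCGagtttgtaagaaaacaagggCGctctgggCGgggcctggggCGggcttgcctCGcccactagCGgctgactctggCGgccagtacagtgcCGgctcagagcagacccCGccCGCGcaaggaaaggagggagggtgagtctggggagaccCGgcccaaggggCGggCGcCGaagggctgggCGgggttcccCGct

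CG dinucleotides numbered 45 in the p19Arf window, 12 in the p16Ink4a window, 18 in the *Cdkn2b* window and 22 in the *Cdkn2d* window. The median of all 32851 windows of that length was 7, and 1.93% of them held 45 or more. Of the 9 windows of CDK inhibitors, 8 exceeded the median. The 22 of *Cdkn2d*, the Ink4 gene with the most reads, thus lay between the 18 of *Cdkn2b* and the 45 of p19Arf. CG number therefore did not separate these windows by reads. Among the other windows, 33 were found at the distal *Cdkn2c* start and 30 at *Cdkn1b*. The GC box GGGCGG, searched on both strands, was found in 7 of the 9 windows and in 35.7% of all. The cyclic AMP response element TGACGTCA, which itself holds a CG, was found among the 9 only in the *Cdkn2b* window, and in 1.79% of all windows. TGANTCA (AP-1) and TTCNNNGAA (STAT) were found in none of the 9, against 7.81% and 8.30% of all windows.

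The upstream start of *Cdkn1a* is shown for a single stretch of 60 bases (chr17:29090908-29090967, plus strand), because *Cdkn1a* is a textbook p53 target and other p53 targets are counted below. Capitals mark a match to the 20-base p53 consensus, a 10-base unit repeated without a gap, that allowed 1 mismatch. It began 51 bases before that start, and 0.0883% of all windows held such a match. These matches are descriptions of sequence and were not tied to binding.
*Cdkn1a*, upstream start: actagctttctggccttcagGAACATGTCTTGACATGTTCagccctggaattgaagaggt

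Of the 7 genes, 5 passed the filter of a mean of at least 1 CPM (counts scaled to the gene total of the library) and are called tested here, and *Cdkn2a* and *Cdkn2b* did not. Levels are given as normalised counts, that is, counts divided by median-of-ratios size factors, and ratios as log2 of (normalised count + 1), the library labelled Ezh2 KO over WT. Intervals are exact at 95% and cover counting error alone, since amplified reads that carry no molecular identifier need not be separate molecules. None of the 5 ratios reached 2-fold in either direction, where 8.81% of the 12588 genes tested did, and none reached 1.5-fold, where 20.5% of genes did. With 5 genes, a count of 0 is not far from those backgrounds. *Cdkn1c* and *Cdkn2d* lay above 0 and the other 3 below, with a median of -0.16 against -0.00317 for all genes tested. A single interval of the 5, that of *Cdkn1c*, left out 0, where the intervals of 40% of all genes tested did. An interval of counting error clear of 0 was therefore common between these libraries.

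**Figure D1:**
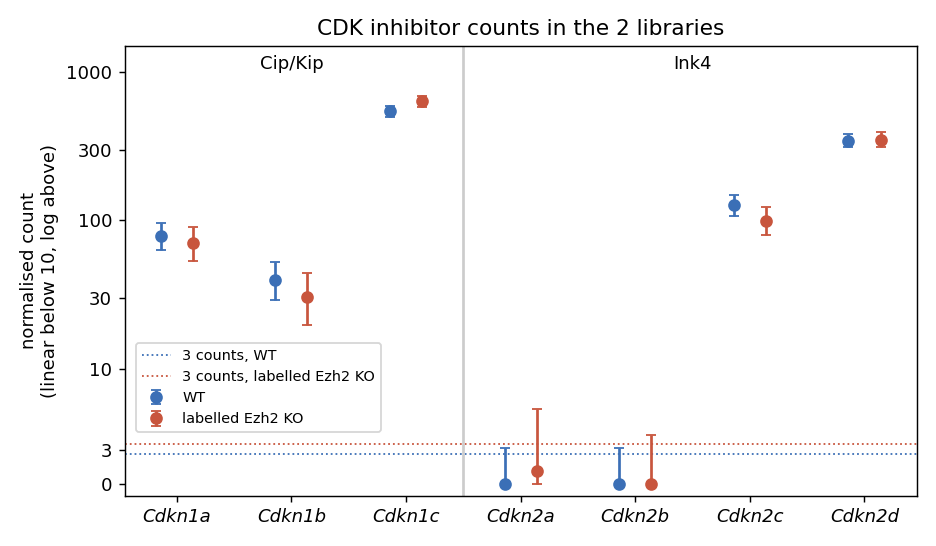
Normalised counts of the 7 CDK inhibitors (y axis, linear below 10 and logarithmic above) in the WT library (blue) and the library labelled Ezh2 KO (red), 1 library each, with exact 95% Poisson intervals and dotted lines at 3 counts. *Cdkn1c* and *Cdkn2d* stand highest in both libraries, while the points of *Cdkn2a* and *Cdkn2b* lie under both lines.

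Among Cip/Kip genes, *Cdkn1c* (chromosome 7, 143458339 to 143461050, minus strand in mm10), which encodes p57 and is imprinted with expression from the maternal copy, had the most reads. Its counts were 632 in WT against 546 in the library labelled Ezh2 KO, which is 542.3 and 636.3 after normalisation. Its log2 ratio was 0.23 (0.06 to 0.40), a difference of 1.17-fold. Of the 500 genes nearest in level, 30.4% had a ratio at least as far from 0, and their robust SD was 0.22. The interval of *Cdkn1c* thus left out 0, as did the intervals of 40% of all genes tested. Its difference was of a size common among genes of its level.

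*Cdkn1a* (chromosome 17, 29090976 to 29100727, plus strand) encodes p21, the arrest protein that p53 induces. It had 91 and 60 counts, WT first, or 78.1 and 69.9 normalised counts. Its log2 ratio was -0.16 (-0.65 to 0.33), an interval that held 0 and reached past 1.5-fold lower. *Cdkn1b* (chromosome 6, 134920401 to 134925513, plus strand) encodes p27, which is controlled largely through degradation of the protein. It had 46 and 26 counts, or 39.5 and 30.3 normalised counts, with a log2 ratio of -0.37 (-1.13 to 0.34). That interval reached past 2-fold lower, and the robust SD of the 500 nearest genes was 0.79. *Cdkn1b* was the least precisely measured of the 5.

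Among Ink4 genes, *Cdkn2d* (chromosome 9, 21288410 to 21291407, minus strand), which encodes p19Ink4d (a different protein from p19Arf), was the most abundant. It had 402 and 301 counts, or 345.0 and 350.8 normalised counts. Its log2 ratio was 0.02 (-0.20 to 0.24), an interval that ended short of 1.5-fold in both directions. *Cdkn2c* (chromosome 4, 109660876 to 109667189, minus strand) encodes p18Ink4c, which is known to limit HSC self-renewal. It had 147 and 85 counts, or 126.1 and 99.1 normalised counts, a log2 ratio of -0.35 (-0.75 to 0.05). Of the 500 genes nearest in level, 40.8% lay at least as far from 0.

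*Cdkn2a* (chromosome 4, 89274471 to 89294653, minus strand), the shared gene of p16Ink4a and p19Arf, had 0 counts in WT against 1 in the library labelled Ezh2 KO. Gene totals do not tell its 2 products apart, and the 1 count cannot be placed at either start. *Cdkn2b* (chromosome 4, 89306299 to 89311039, minus strand), which encodes p15Ink4b and responds to TGF-beta in many cells, had 0 counts in both. Taking 3 counts as the limit that a count of 0 allows, the limit was 0.521 CPM in WT and 0.722 CPM in the other library. The exact intervals drawn in the plot of counts are wider, since they are two-sided. For a count of 0 they end, after normalisation, at 3.17 in WT and 4.30 in the other library, and for the 1 count of *Cdkn2a* at 6.49. No fold is given for either gene, since both libraries were at or under that limit. A difference in *Cdkn2a* or *Cdkn2b* RNA between the libraries was not detectable at this depth.

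**Figure D2:**
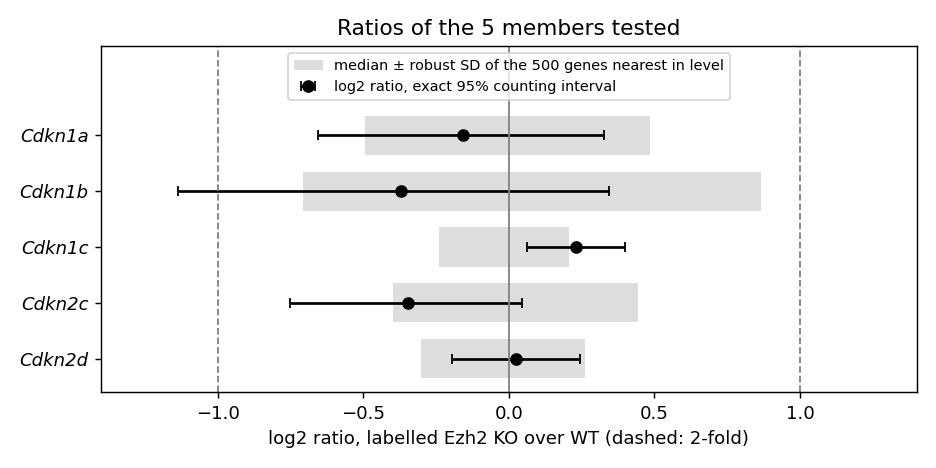
Log2 ratio, library labelled Ezh2 KO over WT (x axis), of the 5 CDK inhibitors tested, with exact 95% counting intervals (black) and, in grey, the median ± robust SD of the 500 genes nearest in level. All 5 points lie between -0.37 and 0.23, and only the interval of *Cdkn1c* leaves out 0.

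**Figure D3:**
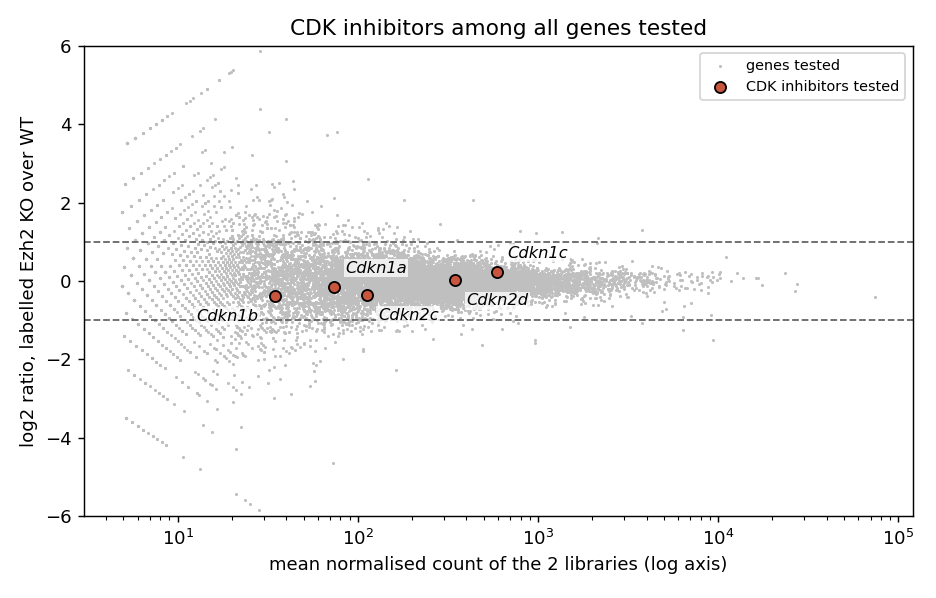
Log2 ratio (y axis) against the mean normalised count of the 2 libraries (x axis, log scale) for the 12588 genes tested (grey) and the 5 CDK inhibitors (red), with dashed lines at 2-fold; 8 genes beyond ±6 are not drawn. The CDK inhibitors sit inside the cloud of genes of their own level.

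To compare genes with each other, counts were divided by exon length and by the gene total of the library (RPKM). *Cdkn1c* came first with 56.5 RPKM in WT against 67.6 in the library labelled Ezh2 KO, above 87.3% and 89.7% of the genes tested. *Cdkn2d* followed with 47.3 and 49.1 RPKM. *Cdkn2c* had 9.50 and 7.61 RPKM, *Cdkn1a* 5.81 and 5.31, and *Cdkn1b* 1.75 and 1.37, above 17.1% and 13.1% of genes. The order of the 5 was the same in both libraries. *Cdkn1c* exceeded *Cdkn2d* by a ratio per kilobase of 1.19 (1.05 to 1.36) in WT and 1.38 (1.19 to 1.59) in the other library. *Cdkn2d* exceeded *Cdkn2c* by 4.98 (4.11 to 6.06) and 6.45 (5.05 to 8.30). The step from *Cdkn2c* to *Cdkn1a* was 1.63 (1.25 to 2.15) in WT and 1.43 (1.02 to 2.03) in the library labelled Ezh2 KO. With the longest transcript as the length, that last step became 1.19 (0.85 to 1.69), so the 2 genes could not be ordered there beyond counting error. *Cdkn1a* exceeded *Cdkn1b* by 3.31 (2.30 to 4.83) and 3.86 (2.40 to 6.38).

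Shares within a library do not depend on the scaling between libraries. *Cdkn1c* made up 46.7% of the reads per kilobase of the 7 genes in WT against 51.5% in the library labelled Ezh2 KO. *Cdkn2d* made up 39.1% and 37.4%, *Cdkn2c* 7.86% and 5.80%, *Cdkn1a* 4.81% and 4.05%, and *Cdkn1b* 1.45% and 1.05%. Thus 1 Cip/Kip gene and 1 Ink4 gene accounted for most of the CDK inhibitor RNA in both. As a share of the raw counts of the 7 genes, *Cdkn1c* held 48.0% (exact binomial 95% interval 45.2% to 50.7%) in WT and 53.6% (50.5% to 56.7%) in the other library. *Cdkn2c* held 11.2% (9.50% to 13%) and 8.34% (6.72% to 10.2%). Of the 10 pairs among the 5 genes, 1 had a ratio of reads whose change between the libraries left out 0. It was *Cdkn1c* over *Cdkn2c*, at 4.30 in WT against 6.42 in the library labelled Ezh2 KO. The log2 change was 0.58 (0.15 to 1.02). This pair sets the member with the highest log2 ratio, 0.23, against one near the lowest, -0.35, and the 10 pairs share genes. The same share over other pairs of genes was not computed, so the pair is given as a description only.

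**Figure D4:**
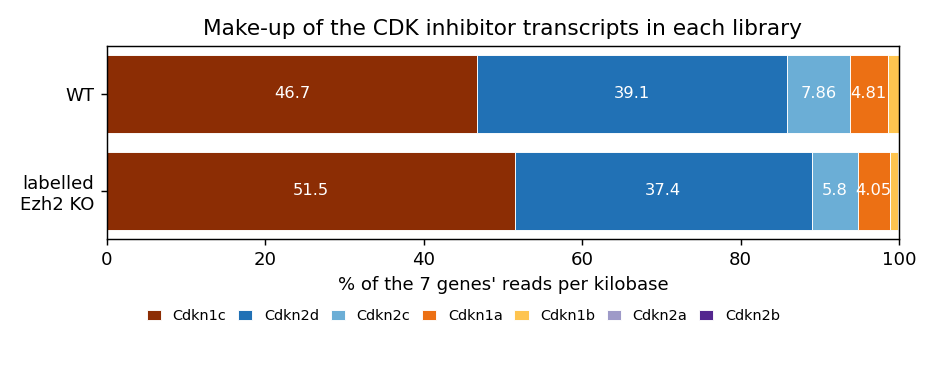
Share of each CDK inhibitor in the reads per kilobase of the 7 genes (x axis, percent), for the WT library and the library labelled Ezh2 KO. *Cdkn1c* and *Cdkn2d* fill most of both bars, and *Cdkn2a* and *Cdkn2b* are too small to see.

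Summed over the family, Cip/Kip genes had 769 and 632 counts, or 659.9 and 736.5 normalised counts, a log2 ratio of 0.16 (0.004 to 0.31). Ink4 genes had 549 and 387 counts, or 471.1 and 451.0 normalised counts, at a log2 ratio of -0.06 (-0.25 to 0.13). Most of the Cip/Kip sum was *Cdkn1c*. Without *Cdkn1c*, the 6 other genes together had 588.7 and 551.2 normalised counts, a log2 ratio of -0.09 (-0.27 to 0.08). In bulk samples, fewer cells that express a gene and less RNA per cell cannot be told apart.

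The pathway around the inhibitors was read from 8 lists with 110 genes in all, of which 106 were tested. Of these, 2 were at least 2-fold higher in the library labelled Ezh2 KO and 4 at least 2-fold lower, or 1.89% and 3.77%, against 4.91% and 3.9% of all genes tested. The median log2 ratio of the 106 was -0.05. The share of all genes past 2-fold depended on their level. At a minimum mean of 10 CPM, 96 of 9670 genes were at least 2-fold higher and 115 lower. Of the pathway genes, 2 higher and 3 lower remained at that minimum. The share over all genes tested is therefore not a background of like level for these lists.

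None of the kinases and cyclins that the inhibitors bind reached 2-fold. Of the 5 cyclin D and Cdk4 or Cdk6 genes, 1 lay above 0 and 4 below, with a median log2 ratio of -0.04. *Ccnd2*, the most abundant cyclin of the list, had 4053 and 3931 normalised counts, and *Cdk4*, a kinase that Ink4 proteins bind, 2243 and 2098. *Cdk6*, the other such kinase, had 95.3 and 131.7 normalised counts, a log2 ratio of 0.46 (0.08 to 0.86). Of the 7 cyclin E, A and B kinase genes tested, 5 lay above 0 and 2 below, with a median of 0.11. *Cdk2*, the chief kinase that Cip/Kip proteins bind, had 486.6 and 447.5 normalised counts, and *Ccna2*, its S phase cyclin, 260.0 and 280.8.

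Downstream, 13 pocket protein and E2F genes were tested, with a median log2 ratio of 0.02. Only *E2f2*, a factor that drives S phase genes, passed 2-fold, with 40 and 69 counts, a log2 ratio of 1.20 (0.65 to 1.83). Among 23 replication and mitosis genes the median was -0.07, with 1 gene past 2-fold in each direction. *Mki67*, which marks cycling cells, had 44 and 72 counts, a log2 ratio of 1.13 (0.59 to 1.73). *Bub1*, a kinase of the mitotic checkpoint, had 89 and 21 counts, a log2 ratio of -1.6 (-2.40 to -0.94). The genes of the dividing state lay on both sides of 0, with 9 of 23 above 0 and 14 below.

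Upstream, 20 transcriptional regulators of CDK inhibitors were tested, with a median of -0.02 and 10 on each side of 0. *Mycn*, a Myc family factor active in HSCs, was the one past 2-fold, with 5097 normalised counts in WT against 2423 in the other library. Its log2 ratio was -1.07 (-1.15 to -1.0). Of the 17 other p53 targets, 12 lay below 0 and 5 above, with a median of -0.35. *Plk2*, a kinase that also responds quickly to stimuli, had 883.0 and 375.2 normalised counts, a log2 ratio of -1.23 (-1.42 to -1.05). *Tnfrsf10b*, a death receptor, had 27 and 9 counts, a log2 ratio of -1.07 (-2.42 to -0.01). The ratio of *Cdkn1a*, at -0.16, lay closer to 0 than the median of these targets, but its interval (-0.65 to 0.33) held that median. Of the 11 ubiquitin ligase parts that degrade Cip/Kip proteins, none reached 2-fold, and the median was -0.25. The 2 most abundant were *Skp1a*, with 2614 and 2815 normalised counts, and *Ddb1*, with 2332 and 1859, both core parts of such ligases.

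**Figure D5:**
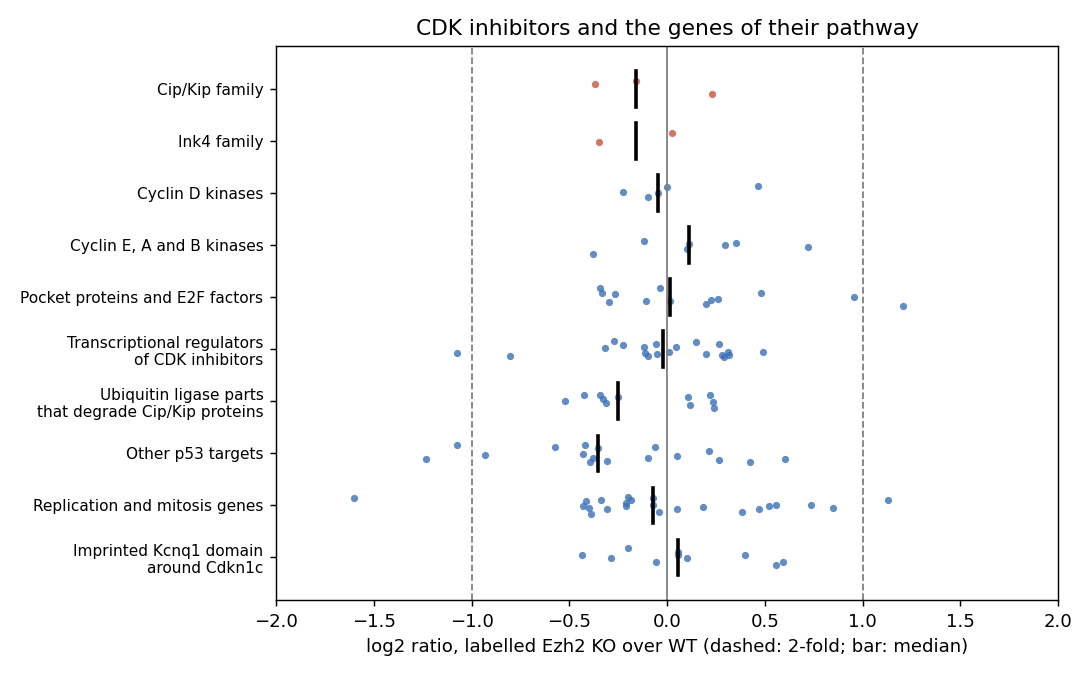
Log2 ratio, library labelled Ezh2 KO over WT (x axis), of each gene tested in the 2 CDK inhibitor families (red) and the 8 pathway lists (blue), with the median of each list as a black bar and dashed lines at 2-fold. The medians run from -0.35 for the other p53 targets to 0.11 for the cyclin E, A and B kinases.

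*Cdkn1c* lies in an imprinted domain controlled by *Kcnq1ot1*, a noncoding RNA made from the paternal copy. *Kcnq1ot1* had 258 and 204 counts, a log2 ratio of 0.10 (-0.17 to 0.37). Of the 10 tested genes of that domain, none reached 2-fold, and the median log2 ratio was 0.05. The 2 with the highest levels, the tetraspanin genes *Cd81* and *Tspan32*, had 3029 and 3147 normalised counts, and 1665 and 1599. On either side of *Cdkn1c*, the nearest protein-coding genes were *Kcnq1*, listed at 0 in both libraries, and *Slc22a18*, with 157 and 120 counts and a log2 ratio of 0.05. *Mtap*, 93390 bases from *Cdkn2a* and an enzyme of methionine salvage, had 848 and 557 counts, a log2 ratio of -0.16 (-0.32 to -0.01). Reads were thus frequent on that side of *Cdkn2a* and *Cdkn2b*, whereas *Dmrta1* on the far side had 0 in both. *Faf1* beside *Cdkn2c* had 614 and 352 counts, a log2 ratio of -0.36 (-0.55 to -0.17), and *Kri1* beside *Cdkn2d* had 177 and 111, at -0.23 (-0.59 to 0.12). *Srsf3* and *Rab44* flank *Cdkn1a*, with log2 ratios of 0.05 and 0.47. *Gpr19* and *Apold1* flank *Cdkn1b*, with 37 and 49 counts, and 3 and 1. On the opposite strand, *Cdkn1a* is overlapped by AC167363.2, an annotation still to be tested by experiment, and *Cdkn1c* by Gm44732, annotated as antisense. Neither has counts of its own in the files, and the use of strand in counting is not given in the sources used here, so reads from the 2 strands cannot be told apart.

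Marker RNAs were read as a check of the labelled cell type. All 14 HSC markers were above 1 CPM and none was at 0, and their normalised counts summed to 31209 in WT against 29219 in the other library. Of these 14, 4 had log2 ratios above 0 and 10 below, with a median of -0.10. Beside *Mycn*, lower values with intervals clear of 0 were found for *Slamf1*, which encodes the CD150 of the gate, at -0.62 (-0.85 to -0.41), *Fgd5* at -0.59 (-0.79 to -0.39), *Ctnnal1* at -0.70 (-1.02 to -0.39) and *Meis1* at -0.08 (-0.16 to -0.01). *Ly6a*, which encodes Sca-1, was at 0.32 (0.23 to 0.41). The RNAs of the gating markers *Cd34*, *Flt3* and *Cd48*, by whose low protein the cells were sorted, summed to 915.6 and 1142. All 3 had log2 ratios above 0, with *Flt3* at 0.95 (0.57 to 1.34), *Cd34* at 0.23 (0.10 to 0.37) and *Cd48* at 0.29 (-1.01 to 1.62). The 8 eosinophil genes summed to 10.3 and 3753, with 5 of them at 0 in WT, among them *Prg2*, with 0 and 2030 counts. The 11 neutrophil genes summed to 10360 and 19012, and the 13 erythroid genes to 8886 and 11125, with 4 globin genes at 0 in both. The 10 B lymphoid genes summed to 239.4 and 463.8, with 6 at 0 in WT and 2 in the other library, and the 9 T and NK cell genes to 255.7 and 230.7, with 5 and 3 at 0. The 10 monocyte and dendritic cell genes summed to 8686 and 7544, and the 8 megakaryocyte genes to 9768 and 9126. Early response genes, which rise within minutes of cell handling, had fewer normalised counts in the library labelled Ezh2 KO. All 9 tested lay below 0, with a median log2 ratio of -0.91. Of the 9, 4 were at least 2-fold lower, or 44.4%, against 3.9% of all genes tested. The part of these differences in the CDK inhibitor values was not tested.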

How the data were processed

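RNA-seq counts of 2 HSC libraries, 1 per group, were used, grouped by their labels. The values that the authors deposited are counts per gene symbol, not normalised. The submitters' processing notes list TopHat2 (2.0.13), Bowtie2 (2.1.0), StringTie and mm10. Each file ends with 5 entries of reads given to no gene (56.1% of the total in WT, 56.9% in the other library), which were left out. These bear names that htseq-count gives, so which program counted is uncertain, as is the strand setting.

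Size factors were 1.17 for WT and 0.858 for the other library (DESeq2 1.42.0, R 4.3.3). Genes with a mean of at least 1 CPM were tested against thresholds of 2-fold and 1.5-fold. With 1 library per group no replicated test could be fitted and no p-value is given. Each ratio was given a 95% interval from the share that its 2 raw counts form (Clopper-Pearson, exact). Robust SD is the scaled median absolute deviation. Exon lengths (union of exons, GENCODE M21 basic set on GRCm38, the assembly of mm10) were found for 23376 of 24421 symbols. The steps were tested on simulated data. Other software was scipy 1.17.1, matplotlib 3.10.9, pandas 2.3.3, Python 3.11.15 and, for alternatives, edgeR 4.0.16.

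The members and lists were chosen with earlier results of these data known. The genes named are the members, *Ezh2*, the list genes past 2-fold or else the 2 of highest level in the list, the nearest coding genes beside members, and markers. *Cdk6* and *Kcnq1ot1*, named for their role, and the sex-linked genes, gating markers and other HSC markers, named as checks, were chosen after their values were seen. Likeness of pattern over 2 libraries is only a ratio, so no genes of like pattern were sought. Alternatives were other scalings (TMM, total counts, upper quartile), pseudocounts of 0.5 and 5, thinning of WT to the depth of the other library, other filters, folds and call rules, and other lengths.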

Additional observations from a re-analysis of the deposited data

How the results depend on the processing

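No paired analysis was possible because a single library stood for either genotype. The log2 ratios of *Ezh2*, of the 5 CDK inhibitors tested and of the 2 family sums kept their sign and stayed within their counting intervals under all 6 alternatives of scaling, pseudocount and thinning, 48 values in all. *Cdkn1c* ranged from 0.23 to 0.30, *Cdkn1a* from -0.23 to -0.13, *Cdkn1b* from -0.38 to -0.07, *Cdkn2c* from -0.35 to -0.32 and *Cdkn2d* from 0.02 to 0.08. The number of CDK inhibitors past 2-fold was 0 under 12 of 13 alternatives and 1 when every gene with at least 1 count was kept, where the 1 count of *Cdkn2a* decided it. Pathway genes past 2-fold, 2 higher and 4 lower, became 8 higher and 6 lower at 1.5-fold, and 0 higher and 0 lower at 4-fold or with an edgeR exact test at an assumed CV of 0.2 or 0.4. As shares of raw counts in place of counts per kilobase, *Cdkn1a* held 6.90% in WT against 5.89% in the other library, *Cdkn1b* 3.49% and 2.55%, *Cdkn2c* 11.2% and 8.34%, and *Cdkn2d* 30.5% and 29.5%, since longer genes then count for more. Over all genes tested, 618 higher and 491 lower past 2-fold became 1321 and 1261 at 1.5-fold, 198 and 116 at 4-fold, 1404 and 1098 with every gene counted, 96 and 115 at a minimum of 10 CPM, 353 and 290 by a binomial comparison of the 2 libraries, and 82 and 54 or 12 and 6 at an assumed CV of 0.2 or 0.4. Apart from that alternative, *Cdkn2a* and *Cdkn2b*, with at most 1 count in either library, were given no ratio. Whether deeper libraries would give a usable one was not tested. Among the 5 tested, *Cdkn1b* and *Cdkn1a*, with the fewest counts, had the widest intervals. A CV between libraries could only be assumed.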
